A study of Mus musculus with 6 samples.

Results

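Hippocampal levels of 9 myelin and oligodendrocyte genes were examined across 3 control and 3 clothianidin (CLO) libraries. The genes are Mbp, Mog, Mag, Mobp, Cnp, Cldn11, Myrf, Sox10 and Opalin. They were chosen by gene symbol, and each matched 1 of the 55411 rows with an Ensembl identifier in the deposited tables. All 9 were among the 16129 genes that passed the filter on low counts and were tested.

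Clothianidin belongs to the neonicotinoids, insecticides that bind nicotinic acetylcholine receptors. The CLO group is labelled as exposed to CLO and the control group as given vehicle. The series text describes male C57BL/6N mice dosed at 50 mg/kg/day, and the extraction protocol names the hippocampus of offspring, so the samples were treated here as offspring of the dosed or vehicle-treated males. The sources used here give no age, sex, litter, sire or pooling for these animals, and no genotype beyond the C57BL/6N strain of the males. Nothing in the labels states that replicates came from separate litters, so p-values measure the spread between these libraries only. Poly(A)-selected, strand-specific libraries held 25232305 to 26812580 counts in control and 19637402 to 21189231 in CLO, each CLO library being shallower than each control library.

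Oligodendrocytes wrap axons of the central nervous system in myelin, a stack of compacted membrane that speeds conduction and feeds the axon. In the hippocampus myelin is densest in the alveus and fimbria, the white matter along its surface, and sparser among the pyramidal and granule cell layers. SOX10, a transcription factor kept throughout the lineage, activates Myrf in differentiating cells. MYRF, released from the endoplasmic reticulum by self-cleavage, then acts with SOX10 on the genes of myelin proteins. Sox10 and Myrf are therefore described beside the other 7 genes, which encode proteins of the myelin sheath or of the oligodendrocyte surface. This split by role was made after the values were seen.

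Upstream sequence is shown because Sox10 and Myrf encode DNA-binding proteins with known motifs. RefSeq promoter entries of the build GRCm38.p6 were found for 6 of the 9 genes, and the 200 bases from 250 to 51 before each annotated start were searched on both strands for ACAAAG, a core that SOX proteins bind, and for CTGGNAC, the core of the MYRF motif. The motifs are not palindromes and do not overlap each other in the windows shown. Mag (before the most upstream of its 3 annotated starts, chr7:30914973-30915172, minus strand) and Cnp (chr11:100574689-100574888, plus strand) held both motifs. Mobp (chr9:120149492-120149691, plus strand) held 6 copies of the SOX core and no MYRF core, and Cldn11 (chr3:31149670-31149869, plus strand) held neither. Each is printed 5′ to 3′ on the strand of its gene, with motif matches on either strand in capitals.
Mag: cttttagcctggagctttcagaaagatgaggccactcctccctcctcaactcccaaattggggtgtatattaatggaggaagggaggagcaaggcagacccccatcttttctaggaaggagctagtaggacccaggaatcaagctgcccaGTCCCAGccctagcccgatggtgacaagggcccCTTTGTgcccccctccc
Cnp: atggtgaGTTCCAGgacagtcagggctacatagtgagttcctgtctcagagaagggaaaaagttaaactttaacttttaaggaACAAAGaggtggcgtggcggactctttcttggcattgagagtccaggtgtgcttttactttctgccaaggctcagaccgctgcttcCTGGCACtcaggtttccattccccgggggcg
Mobp: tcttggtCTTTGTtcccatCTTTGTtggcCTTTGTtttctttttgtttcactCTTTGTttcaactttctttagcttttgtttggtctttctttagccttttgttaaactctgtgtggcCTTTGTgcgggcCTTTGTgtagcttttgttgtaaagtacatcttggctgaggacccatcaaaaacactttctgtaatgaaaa
Cldn11: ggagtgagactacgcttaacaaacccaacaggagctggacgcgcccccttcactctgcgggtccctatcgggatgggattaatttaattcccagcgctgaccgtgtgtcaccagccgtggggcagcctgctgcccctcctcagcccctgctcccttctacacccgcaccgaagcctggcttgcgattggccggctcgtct
Opalin held 1 SOX core and Mog 1 MYRF core. At least 1 start of 4 of the 6 genes thus held the SOX core, which 13.6% of all 32851 windows of this length held, and at least 1 start of 3 of the 6 held the MYRF core, held by 13.2% of windows. The counts are per gene, over 8 windows in all, and the shares are per window, so they are not like for like. The windows of the 3 Mag starts differ, and 1 of them held neither motif. Another, before a start downstream of the one printed, also held both. The first bases after the printed Mag start were not found in a transcript, while those after the other Mag starts were. A match describes the letters of the window and not a bound site.

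Mbp was the most abundant of the 9 genes and ranked 243rd among all genes by mean TPM (a transcript level scaled to gene length and library total). It encodes myelin basic protein, which holds the cytoplasmic faces of the membrane together, and lies on chromosome 18 from 82493271 to 82603762 (GRCm39, as for all gene positions here). Its level was 619.6, 542 and 368 TPM in control replicates 1, 2 and 3 and 569, 313 and 387 TPM in CLO replicates 1, 2 and 3. The groups overlapped, with CLO replicate 1 above control replicates 2 and 3 and CLO replicate 2 the lowest of all. Cnp, which encodes an enzyme and cytoskeletal partner of non-compact myelin (chromosome 11, 100465730 to 100482555), ranged from 171 to 261 TPM in control and from 143 to 225 TPM in CLO.

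Cldn11, whose claudin forms the tight junctions between myelin layers (chromosome 3, 31204069 to 31218473), was at 176, 137 and 98.4 TPM in the control replicates and at 162, 83.3 and 101 TPM in the CLO replicates. Mobp, an abundant basic protein of compact myelin (chromosome 9, 119978773 to 120010550), was at 139, 150.5 and 104 TPM in control and at 139, 63.3 and 97.2 TPM in CLO. CLO replicate 1 stood level with control replicate 1 for Mobp, while CLO replicate 2 stood well below every other library. These neighbours in level changed places between libraries, Cldn11 being above Mobp in 4 of 6.

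The adhesion proteins of the innermost and outermost membranes came next. Mag, on the membrane that faces the axon (chromosome 7, 30598601 to 30614298), ranged from 67.2 to 102 TPM in control and from 51.1 to 83.1 TPM in CLO. Mog, on the outer surface of the sheath (chromosome 17, 37321635 to 37334290), ranged from 57.6 to 90.1 TPM in control and from 43.6 to 73.8 TPM in CLO. Mag was above Mog in 6 of 6 libraries, although their ranges overlapped in each group.

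Sox10 (chromosome 15, 79039108 to 79049440) was at 25.0, 33.5 and 23.9 TPM in the control replicates and at 24.3, 17.5 and 14.4 TPM in the CLO replicates. On this scale CLO replicate 1 lay between control replicates 1 and 3, whereas in CPM (reads relative to the library total after scaling by TMM factors, not divided by length) each CLO library lay below each control library. Opalin, a glycoprotein of the oligodendrocyte membrane (chromosome 19, 41050149 to 41065552), was at 17.8, 10.3 and 7.60 TPM in control and at 9.15, 6.57 and 9.02 TPM in CLO. Control replicate 1 alone stood apart for Opalin, and the other 5 libraries lay within 6.57 to 10.3 TPM. Myrf (chromosome 19, 10185636 to 10218112) was the least abundant, at 7.002, 9.57 and 7.42 TPM in control and at 7.59, 4.01 and 3.38 TPM in CLO. CLO replicates 2 and 3 lay below every control library for Myrf and CLO replicate 1 among them.

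The order from Mbp to Cnp, Cldn11, Mobp, Mag, Mog, Sox10, Opalin and Myrf held between neighbours in 6 of 6 libraries except for Cldn11 and Mobp. The control ranges of Mbp and Cnp did not overlap, nor did those of Mobp and Mag, Mog and Sox10, or Sox10 and Opalin. In CLO the ranges of Mobp and Mag overlapped, while those of the other pairs named here did not. No gene with 3 or more counts overlapped a member on the same strand. Mobp overlaps the model Gm38642, which had at most 2 counts in any library. Mbp, Mog and Cnp overlap genes on the opposite strand, whose reads the counting separates only if it used strand, which the sources used here do not state.

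**Figure D1:**
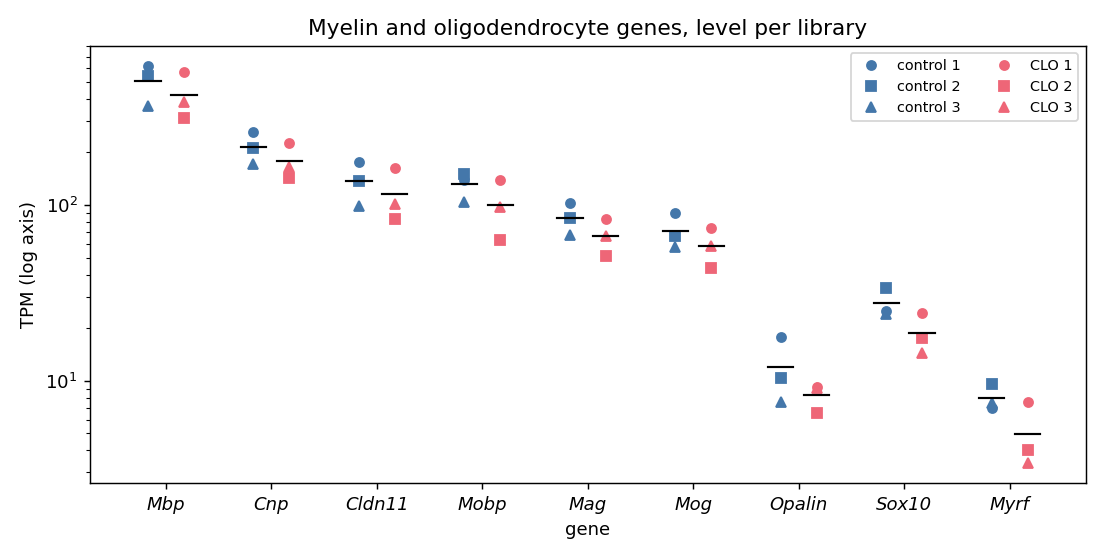
TPM on a log axis for each gene and library. Points are libraries, marked by replicate number, blue for control and red for CLO, and black bars are group means. Mbp lies highest, from 313 to 619.6 TPM, Myrf lowest, from 3.38 to 9.57 TPM, and the 2 groups overlap for each gene on this scale.

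Summed over the 9 genes, the level was 1437, 1245 and 904 TPM in the control replicates and 1292, 725 and 902 TPM in the CLO replicates. The mean was 1196 ± 269.8 TPM in control and 973 ± 290.0 TPM in CLO (SD, n = 3), so the groups differed by less than their spread. The highest library held 1.98 times the sum of the lowest. Mbp made up 40.7% to 44.0% of the sum in every library, Cnp 16.99% to 19.7%, Mobp 8.72% to 12.1% and Cldn11 10.9% to 12.5%. Sox10 ranged from 1.6003% to 2.69% and Myrf from 0.374% to 0.820% of the sum. In bulk tissue, fewer oligodendrocytes and less of these RNAs per cell cannot be told apart.

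None of the 9 genes passed the threshold between CLO and control. In the quasi-likelihood test of edgeR, with Benjamini-Hochberg adjustment over all genes and a threshold of 0.05, 0 of 16129 genes passed, or 0%. At an unadjusted p under 0.05 there were 2167 genes (13.4%), and DESeq2 called 204 (1.26%), with 0 members among them. All 9 fold changes were below 1, and their median on the log2 scale was -0.22, against -0.01 over all genes tested, of which 51.8% were below 0. The 7 myelin-protein genes were at 0.768-fold to 0.909-fold of control, differences smaller than the ranges of their libraries, which overlapped. Sox10 and Myrf had the largest differences and the smallest p-values.

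Myrf was at 29.5 ± 5.32 CPM in control and 19.4 ± 6.09 CPM in CLO (SD, n = 3), 0.659-fold. On the log2 scale the difference was -0.60 ± 0.22 (SE), and the adjusted p by edgeR was 0.311. Sox10 was at 35.5 ± 6.76 CPM in control and 26.0 ± 3.45 CPM in CLO, 0.733-fold. On the log2 scale the difference was -0.45 ± 0.18 (SE), and the adjusted p by edgeR was 0.334. These 2 of the 9 genes had an unadjusted p under 0.05 and were lower in CLO, as were 7.26% of all genes tested. Sox10 was the only member whose groups did not overlap in CPM, from 30.8 to 43.2 in control and from 22.8 to 29.6 in CLO, and 6.69% of all genes were lower in CLO without overlap. Myrf passed with no filter on low counts (adjusted p = 0.0375 by edgeR), a setting in which 2.56% of 27303 genes passed, and in no other setting run.

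Opalin came next, at 14.7 ± 5.81 CPM in control and 11.3 ± 2.28 CPM in CLO, with a log2 fold change of -0.38 ± 0.26 (SE) and an adjusted p of 0.517 by edgeR. It was -0.02 without control replicate 1. Mobp was at 473 ± 75.3 CPM in control and 388 ± 114 CPM in CLO, with a log2 fold change of -0.28 ± 0.22 and an adjusted p of 0.552. It was -0.06 without CLO replicate 2. Mbp was at 1844 ± 388 and 1656 ± 339 CPM, with a log2 fold change of -0.16 ± 0.20 and an adjusted p of 0.739. The log2 fold changes of Mag, Mog, Cnp and Cldn11 were -0.22, -0.16, -0.15 and -0.14, each with an SE of 0.17 to 0.21 and an adjusted p of 0.576 to 0.783 by edgeR.

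With control replicates 1 and 2 both left out, 3 of 9 genes were lower in CLO, namely Myrf (-0.61), Sox10 (-0.33) and Mobp (-0.07), and the median was 0.05. That leaves control replicate 3 as the only control, so these are values with no test. Without control replicate 1 the median log2 fold change was -0.03, and without CLO replicate 2 it was -0.06.

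**Figure D2:**
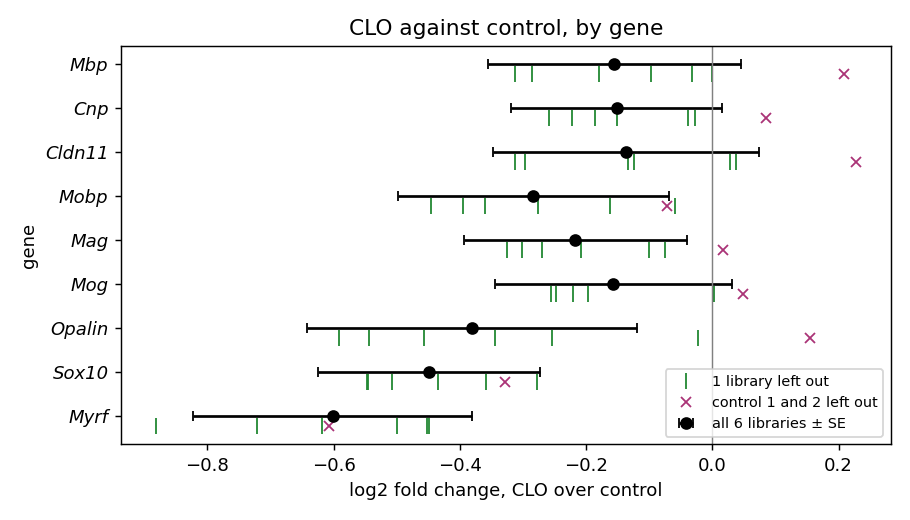
Log2 fold change of CLO over control for each gene. Black points and bars are the estimates from all 6 libraries with their SE, green ticks the estimates with 1 library left out and crosses those without control replicates 1 and 2. Sox10 and Myrf stay below 0 throughout, from -0.28 to -0.88, whereas 6 of the other 7 genes lie above 0 without control replicates 1 and 2.

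To compare the genes across libraries, for each gene log2 CPM was centred on its mean over the 6 libraries. The mean centred value of the 7 myelin-protein genes was 0.39, 0.13 and -0.20 in control replicates 1, 2 and 3 and 0.09, -0.45 and 0.05 in the CLO replicates. It was thus lower in control replicate 3 than in CLO replicates 1 and 3. For Sox10 and Myrf the mean was 0.05, 0.55 and 0.20 in control and 0.07, -0.36 and -0.51 in CLO. Their highest library was control replicate 2 and their lowest CLO replicate 3, a library in which the 7 other genes were near their mean.

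Likeness between genes was measured as the root mean square distance of their centred log2 CPM over the 6 libraries, in log2 units, and is a description of libraries that share depth and tissue. The closest pairs were Mbp and Cldn11 (0.06), Mog and Mag (0.06) and Mag and Cnp (0.06). Sox10 and Myrf were 0.18 apart, and the most distant pair was Myrf and Opalin (0.56). Mobp, highest in control replicate 2 like Sox10 and Myrf, still lay nearest to Mbp (0.17) and at 0.18 to 0.21 from Mag, Cldn11, Mog and Cnp. It was farther from Sox10 (0.30), Myrf (0.34) and Opalin (0.35). Relative to the 7 other genes, Sox10 and Myrf stood at -0.33, 0.42 and 0.40 in control and at -0.01, 0.08 and -0.56 in CLO. Control replicate 1 lay within the range of the CLO libraries, so this contrast of roles did not separate the groups.

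**Figure D3:**
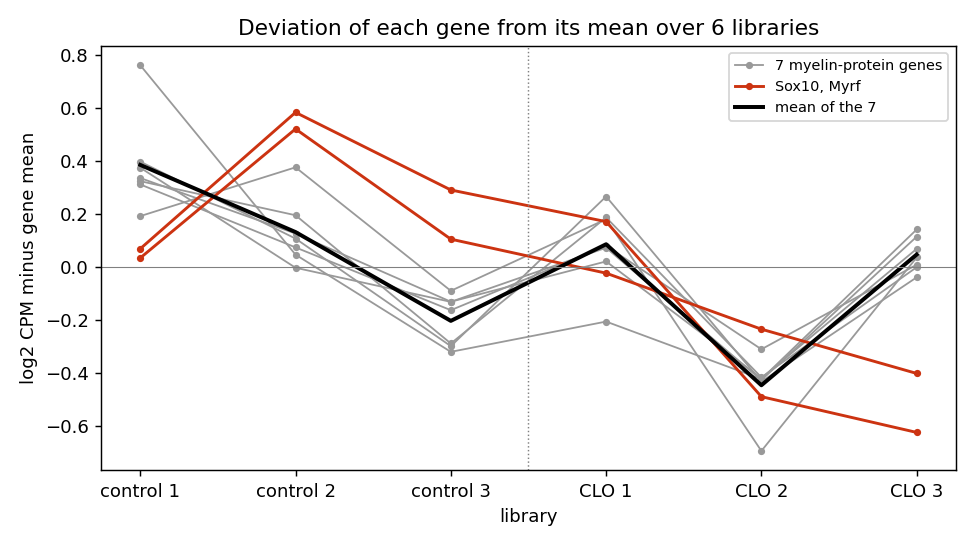
Deviation of log2 CPM from the gene's mean over 6 libraries, with libraries on the horizontal axis and control left of the dotted line. Lines only join the values of a gene, grey for the 7 myelin-protein genes, black for their mean and red for Sox10 and Myrf. The black line is lowest in CLO replicate 2, at -0.45, and the red lines in CLO replicate 3, at -0.40 for Sox10 and -0.62 for Myrf.

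Distance to the mean profile of the 9 was ranked over 12656 other genes with a mean of at least 1 CPM. Genes whose symbol was a model number (Gm or Rik) or a pseudogene (-ps) were left out of these. The 10 closest were Cd82, Enpp2, Arsg, Lrrc6, Dlx1, Trf, Lpar1, Tmem88b, Nudt4 and Mlip, at distances from 0.06 to 0.08. A gene with no variation would lie at 0.24. Enpp2, which encodes autotaxin, Trf, which encodes transferrin, and Lpar1, a lysophosphatidic acid receptor, are on the oligodendrocyte lists described next. Measured on log2(TPM + 1), 8 of these 10 genes were again among the 10 closest. For the 7 myelin-protein genes alone the closest was Gjb1, the connexin 32 gene of oligodendrocytes, at 0.03. It was at 10.9, 8.97 and 7.34 CPM in control and at 8.51, 6.03 and 8.68 CPM in CLO. For Sox10 and Myrf the closest was Zfp592 (0.03), and 0 of the 10 closest were on an oligodendrocyte list.

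Most other genes of mature oligodendrocytes and myelin also had lower values in CLO, and none passed. Of 37 tested, 29 had lower and 8 higher values in CLO (median -0.17 on the log2 scale), and 0 passed by edgeR (1 at an unadjusted p under 0.05). Tmem63a, a mechanosensitive channel gene, had the smallest p of the list, at 21.6 ± 2.24 CPM in control and 16.6 ± 2.601 CPM in CLO. The connexin gene Gjc3 was at 15.1 ± 2.09 CPM in control and 11.5 ± 2.72 CPM in CLO. For comparison, 51.8% of all genes tested had a log2 fold change below 0. By edgeR 13.4% of them had an unadjusted p under 0.05 in either direction, and 7.26% when only decreases were counted. Counts for this list and the lists that follow stand beside these shares. Whether any list departs from them was not tested.

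Genes that make myelin lipids were lower in 17 of 19 (median log2 fold change -0.16), with 0 passed by edgeR and 0 at an unadjusted p under 0.05. Fa2h, which hydroxylates the fatty acids of galactolipids, was at 20.5 ± 6.88 CPM in control and 14.7 ± 4.45 CPM in CLO. Ugt8a, which adds galactose to ceramide, was at 22.9 ± 3.07 and 20.9 ± 5.35 CPM.

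Other transcription factors and chromatin regulators of the lineage had lower values in 24 of 24 genes (median log2 fold change -0.24). None passed, and 4 had an unadjusted p under 0.05 by edgeR. Those with the smallest p were Sox6 and Sox5, which hold back differentiation in precursors and are also expressed in neurons. Sox6 was at 11.7 ± 2.15 CPM in control and 6.50 ± 1.39 CPM in CLO (log2 fold change -0.84 ± 0.21, adjusted p = 0.202 by edgeR). Sox5 was at 22.6 ± 5.60 and 14.6 ± 2.66 CPM. Both genes are long, at 14832 bp for Sox6 and 14376 bp for Sox5. With each library's trend with gene length removed the median of this list was -0.21. Sox9, counted in it, is also on the astrocyte list, so the list is not particular to oligodendrocytes. Olig1 and Olig2, the factors that specify the lineage, differed little, with Olig1 at 146 ± 21.8 and 142 ± 7.01 CPM and Olig2 at 26.6 ± 1.73 and 24.7 ± 0.599 CPM. Their log2 fold changes were -0.04 ± 0.15 and -0.11 ± 0.15 (SE).

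Earlier stages of the lineage went both ways. Committed precursors and newly formed oligodendrocytes had 9 of 15 genes lower and 6 higher (median -0.21). Precursors had 10 of 17 lower and 7 higher (median -0.11). These shares lie near the 51.8% of all genes tested that were lower. In either list 0 passed by edgeR. At an unadjusted p under 0.05 the first list had 1 gene, lower in CLO, and the precursor list 3 lower and 1 higher. Itpr2 was at 19.4 ± 2.34 CPM in control and 13.5 ± 2.63 CPM in CLO, and Bcas1, a marker of cells that begin to myelinate, at 115 ± 18.6 and 99.2 ± 22.4 CPM. The precursor genes Pdgfra and Cspg4 were at 36.6 ± 11.4 and 26.8 ± 7.84 CPM in control and at 30.1 ± 6.999 and 19.2 ± 2.06 CPM in CLO. Emid1, the precursor gene that was higher at an unadjusted p under 0.05 by edgeR, was at 4.63 ± 0.634 CPM in control and 6.37 ± 0.489 CPM in CLO.

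Genes of the node, paranode and axonal myelination cues, most of them neuronal, were lower in 29 of 34 (median -0.28). None passed by edgeR, and 9 had an unadjusted p under 0.05. Ank3, which encodes the ankyrin G scaffold of the node and initial segment, was at 249 ± 54.3 CPM in control and 161 ± 37.0 CPM in CLO. Cntn2, an adhesion protein of the juxtaparanode, was at 70.7 ± 6.46 and 50.4 ± 13.4 CPM. This list's median moved to -0.05 when each library's trend with gene length was removed.

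Gene length moved with the group difference in these libraries and touches the members unequally. For the 3227 genes of shortest deposited length (up to 2010 bp) the median difference was 0.27 on the log2 scale, and for the 3226 longest (from 7597 bp) it was -0.25. Mbp (8609 bp), Mobp (8562 bp) and Myrf (8689 bp) belong to the longest set, and Mog (1704 bp) and Cldn11 (1870 bp) to the shortest. With the trend removed the log2 fold change was 0.01 for Mbp, -0.11 for Mobp and -0.43 for Myrf, against -0.30 for Mog and -0.26 for Cldn11. Sox10 (3051 bp) was at -0.52 and the median of the 9 at -0.26. The part of RNA or library quality in the members' values was not tested.

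Control replicates 1 and 2, the libraries highest for the 9 genes on average, were also highest for markers of the neocortex and of meningeal fibroblasts. Neocortex markers had lower values in CLO in 17 of 18 genes (median -0.50), with 0 passed by edgeR and 12 lower at an unadjusted p under 0.05. Their summed level was 278 to 436 TPM in control and 222 to 306 TPM in CLO, with 0 of them at 0 counts. Their mean centred value was 0.68, 0.51 and -0.12 in control and -0.01, -0.43 and -0.63 in CLO. In CLO replicate 3, their lowest library, the 9 genes were at -0.08. Markers of hippocampal neurons, which bear on the labelled tissue, were present in all libraries at a summed 669.7 to 968 TPM and were lowest in the same pair of controls, at -0.30 and -0.40. Of 15 tested, 11 had higher values in CLO (median 0.27), with 0 passed by edgeR and 7 at an unadjusted p under 0.05. Markers of meningeal fibroblasts, with 8 of 10 lower, summed to 353 to 1715 TPM in control and 356 to 777 TPM in CLO. Most of the control sum was Ptgds, at a mean of 1025 TPM, with Dcn next at 26.5 TPM, so the sum largely follows Ptgds. The mean centred value of these markers, in which each gene counts equally, was 0.30 in CLO replicate 2, the lowest library of the 9 genes. Transcripts of spermatids summed to 38.7 and 15.3 TPM in control replicates 1 and 2 and to 0.669 TPM or less elsewhere. The part of these tissues in the members' values was not tested. Of the Schwann cell list, Prx was at 4 to 13 counts in each library, and 6 of its 11 genes passed the filter on low counts. Astrocyte markers were lower in 8 of 15 genes and markers of all neurons in 7 of 15, while 14 of 15 microglial markers were higher (median 0.22). The microglial median moved to 0.13 with each library's trend with gene length removed and to 0.10 on log2(TPM + 1). Endothelial markers were lower in 7 of 11 and choroid plexus markers in 3 of 5.

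**Figure D4:**
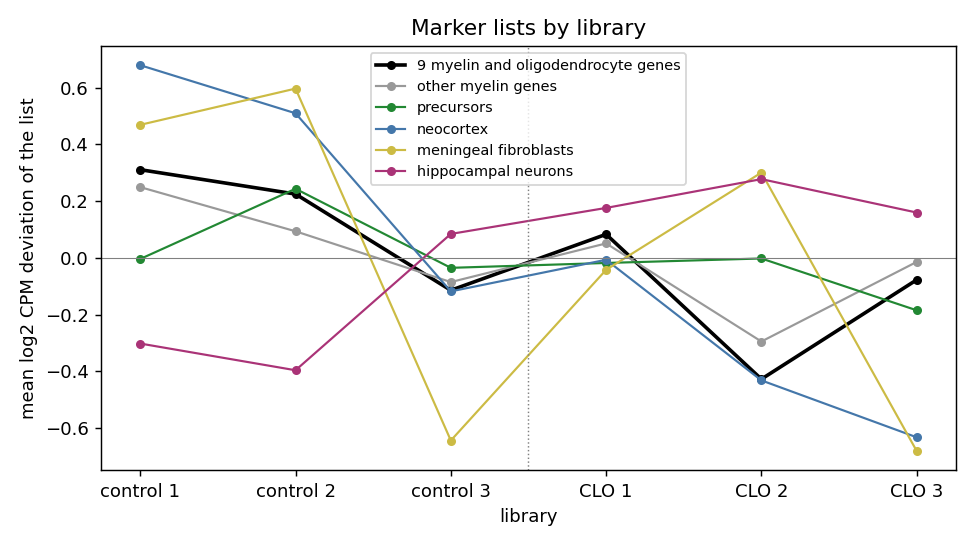
Mean centred log2 CPM of gene lists in each library, control left of the dotted line, with lines that only join the values of a list. The 9 genes (black) are highest in control replicates 1 and 2, at 0.31 and 0.22, as are the neocortex markers (blue), at 0.68 and 0.51, while the hippocampal neuron markers (purple) are lowest there.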

How the data were processed

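Messenger RNA of mouse hippocampus was sequenced in 3 control and 3 CLO libraries, grouped by their titles. The authors deposited raw read counts per gene and TPM values, which were recomputed from the counts and the deposited length to within 0.0005. Per the submitters' processing notes the tools were HISAT2 2.2.0, cutadapt 2.9 and featureCounts 2.6.0 on GRCm39. Annotation release, strand setting and other counting options: not given in the sources used here. Per the labels' protocols, RNA had an integrity number of at least 8.

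Of 56514 rows, 1103 without an Ensembl identifier were left out, and the others held at least 99.2% of the counts of each library. The test was that of edgeR 4.0.16 under R 4.3.3 (filterByExpr, TMM, robust quasi-likelihood test, two-sided, no block, Benjamini-Hochberg over 16129 genes, threshold 0.05). For centred values, a prior count of 2 was added before log2 CPM was taken. Alternatives used DESeq2 1.42.0 and limma 3.58.1, log2(TPM + 1), no filter, a replicate block, length offsets and left-out libraries. The members and lists were chosen with earlier results of these data known, and 286 of 290 list symbols were found. All 9 members are named, with up to 4 genes of smallest p per list and the 10 most like genes, and other genes were chosen after their values were seen. The edgeR script was tested on simulated data. Some genes of the lists are counted but their values are not reported here. The promoter window and the split by role were chosen after values were seen.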

Additional observations from a re-analysis of the deposited data

How the results depend on the processing

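Over 14 alternative settings with a test, 120 of 126 fold changes of single members kept their direction and did not pass, 5 changed sign and 1 passed (Myrf with no filter). Without control replicates 1 and 2, a setting with no test, 6 of 9 changed sign. Without 1 library the median log2 fold change of the 9 genes ran from -0.33 to -0.03, and 0 to 20 genes of the whole table passed, 20 without control replicate 3 and 2 without control replicate 1, with 0 members among them. By DESeq2 204 genes passed, and with no filter 699 genes passed, 1 of them a member. Without control replicates 1 and 2 the median was 0.048, and Mbp stood at 0.21, Mog at 0.048, Mag at 0.018, Cnp at 0.086, Cldn11 at 0.23 and Opalin at 0.15. Mbp was at 0.010 with the length trend removed. With 1 library left out Mog ran from -0.26 to 0.0024, Cldn11 from -0.31 to 0.037, Mbp from -0.31 to -0.00049, Mag from -0.33 to -0.07, Cnp from -0.26 to -0.03, Opalin from -0.59 to -0.02, Mobp from -0.45 to -0.06, Sox10 from -0.55 to -0.28 and Myrf from -0.88 to -0.45. The cause of these changes was not tested. The log2 ratio of the summed level was -0.30 in TPM and -0.18 in CPM.

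The replicate numbers were not treated as pairs, since the correlations of the deviations of same-numbered libraries were -0.16, -0.09 and 0.28, and not every library was most like its own number. With the replicate block 0 genes and 0 members passed, and the median of the 9 was -0.22.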
